A study of Mus musculus with 10 samples.

Results

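The genes followed mark Paneth cells without being defensins: Lyz1, Lyz2, Mmp7, Mptx2, Clps, Nupr1, Itln1, Pla2g2a, Fgfrl1 and Wnt3. They are 10 in number and were taken by symbol as a fixed list, all 10 were found among the 23969 symbols of the deposited table, and all 10 passed the filter on low values. Paneth cells sit between the stem cells at the base of the small intestinal crypt. They fill large granules with antimicrobial proteins, which they release into the crypt, and they give the neighbouring stem cells signals that include WNT3. Their own maturation in the mouse depends on Wnt signalling, which R-spondins strengthen.

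The cells came from the proximal jejunum of Lgr5-eGFP-IRES-CreER mice, in which the locus of the R-spondin receptor gene Lgr5 drives GFP. Every mouse had been given an adenovirus into a vein: AdRspo1 (R-spondin gain of function, 3 GFP-positive libraries), AdLGR5 ECD, which carries the extracellular domain of LGR5 (R-spondin loss of function, 3 GFP-positive libraries), or AdFc, the control virus (2 GFP-positive libraries). No dose, time or age is stated, and the replicates are called biological by the submitters. The 2 control columns carry a wild-type name without the sort or the sample. They were read as the GFP-positive AdFc cells because the series text gives 2 control replicates of sorted stem cells, so every comparison with Fc rests on that reading. The 2 GFP-negative AdFc samples were not analysed here.

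Transcripts were measured by bulk RNA sequencing and deposited as FPKM, fragments per kilobase of transcript and per unit of library size. FPKM summed to 189335 to 275937 per library, and read totals are not known. Genes above 0 numbered 11485 in LGR5-ECD library 3 and 13417 to 14197 elsewhere. The sort marker Lgr5 stood at 96.5 to 113 FPKM in Rspo1, 2.84 to 8.31 FPKM in LGR5-ECD and 40.6 and 22.0 FPKM in the controls. The sorted pools also held transcripts of other cell types. Summed over 12 genes each, enterocyte markers reached 386 to 453 FPKM in Rspo1, 1218 to 1433 FPKM in LGR5-ECD and 617 and 699 FPKM in the controls. Goblet markers reached 357 to 806 FPKM in Rspo1, 847 to 2657 FPKM in LGR5-ECD and 339 and 948 FPKM in the controls. Of the 12, 7 had a positive log2 change in Rspo1 against Fc (median 0.35) and 11 in LGR5-ECD against Fc (median 1.53). Called higher than Fc were 3 of the 12 in Rspo1 (Foxa3, Spink4 and Creb3l4) and 3 in LGR5-ECD (Ccl6, Sytl2 and Spink4). Without a filter on low values both counts were 0. Between the treated groups, 1 was higher and 6 were lower in Rspo1 than in LGR5-ECD. In Rspo1 against Fc, Muc2 (-0.31), Tff3 (-0.43), Fcgbp (-1.19), Clca3 (-2.875) and Zg16 (-2.81) were below 0 and not called. Goblet gene Spink4 was at 144, 167 and 130 FPKM in Rspo1, at 61.9, 206 and 192 FPKM in LGR5-ECD and 24.7 and 26.7 FPKM in the controls, and it was called higher than Fc in both treatments (2.46, adjusted p = 0.0282, and 2.35, adjusted p = 0.0451). Both of these calls were lost without either control or any single Rspo1 library, and the LGR5-ECD call also without LGR5-ECD replicate 2 or 3. Enteroendocrine markers, 10 genes, summed to 24.8 to 32.0 FPKM in the Rspo1 libraries. In LGR5-ECD the sums were 19.2 to 53.6 FPKM, and in the controls 11.9 and 8.21 FPKM. By this sum every treated library was above both controls, but not all of these markers followed it. Of the 8 tested, 7 had a positive log2 change against Fc with Rspo1 and 6 with LGR5-ECD. Chga and Chgb were above both controls in every treated library. Neurog3 was lower in LGR5-ECD (0.886, 2.15 and 2.05 FPKM) than in controls 1 and 2 (5.34 and 3.66 FPKM). Neurod1 was highest in control 1, at 1.42 FPKM. Tuft cell markers, 8 genes, summed to 254 to 393 FPKM in Rspo1, 171 to 212 FPKM in LGR5-ECD and 131 and 213 FPKM in the controls. Most of each sum was Cd24a, which is also among the receptor genes below. Cd24a stood at 237, 240 and 361 FPKM in Rspo1 and at 131, 163 and 130 FPKM in LGR5-ECD. The controls had 107 and 112 FPKM of it. In Rspo1 against Fc, 1 of the 7 tested tuft genes had a positive log2 change, and their median was -0.89. The controls differed here too. Controls 1 and 2 had 8.14 and 41.2 FPKM of Trpm5, 4.92 and 21.0 of Pou2f3, 2.27 and 8.84 of Dclk1 and 5.15 and 17.9 of Avil. The Rspo1 means of these genes were 0.862, 1.57, 0.914 and 0.782 times control 1. The part of these cells in the results was not tested.

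Some of the 10 genes were called higher than Fc in both treatments, others were higher in Rspo1 than in LGR5-ECD, and Lyz1, Lyz2 and Itln1 were called in no comparison. Against Fc, 4 of the 10 rose in Rspo1 (Mmp7, Pla2g2a, Mptx2 and Clps), where 0.672% of the 11454 genes tested were called higher. In LGR5-ECD 4 of the 10 rose against Fc (Nupr1, Mptx2, Clps and Mmp7), where 0.445% of all genes were called higher. Mmp7, Mptx2 and Clps were thus called in both comparisons, which share the same control libraries. Between the treated groups, Pla2g2a, Fgfrl1 and Wnt3 were higher in Rspo1 than in LGR5-ECD, 3 of 10 against 4.92% of all genes. No member fell in any of the 3 comparisons by limma, where 0.576%, 0.271% and 3.54% of all genes were called lower. Only the calls of Pla2g2a and Fgfrl1 between Rspo1 and LGR5-ECD held under every alternative run. Without a filter on low values, the calls against Fc were lost except that of Mmp7 in Rspo1, and that of Wnt3 between the treated groups was lost too (adjusted p = 0.0646). At an unadjusted p under 0.05, 0, 1 (Fgfrl1) and 1 (Nupr1) of the 10 were lower in Rspo1 against Fc, LGR5-ECD against Fc and Rspo1 against LGR5-ECD. In sorted pools, more Paneth cells and more of these transcripts per cell cannot be told apart. All 12 listed stem cell markers were also called higher in Rspo1 than in LGR5-ECD. The part of a changed share of stem cells in the pools was not tested.

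**Figure D1:**
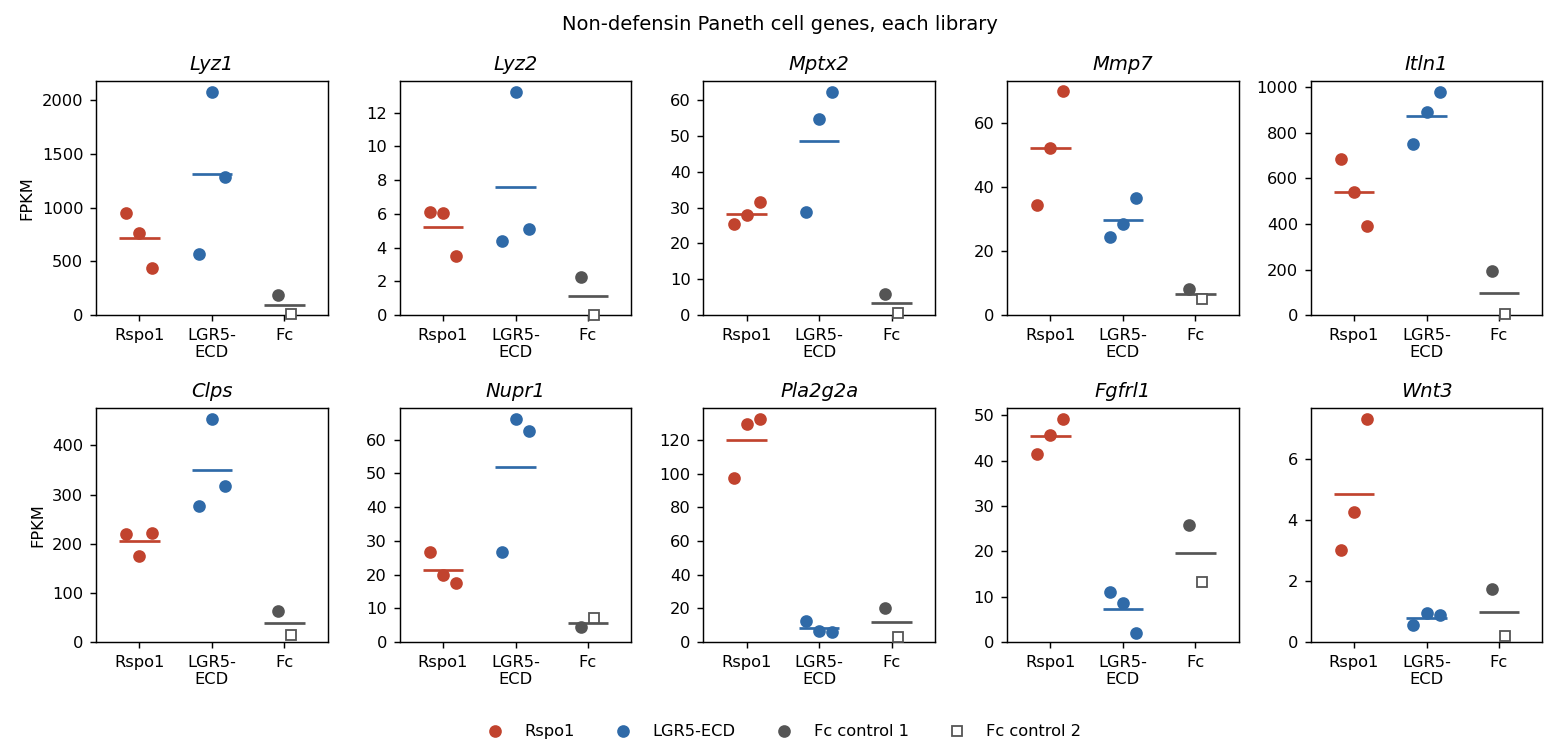
FPKM (vertical axes, each starting at 0) of the 10 genes in each library of the Rspo1, LGR5-ECD and Fc groups; points are libraries, horizontal bars are group means, and Fc control 2 is the open square. Lyz1 and Itln1 sit near 0 in control 2 (5.95 and 3.48 FPKM), and Pla2g2a, Fgfrl1 and Wnt3 are highest in the Rspo1 libraries.

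Every Rspo1 library exceeded both controls for 10 of the 10 genes. For all genes tested such a separation was found for 26.2%. In LGR5-ECD, 7 of the 10 lay above both controls in every library, against 18.2% of all genes, and Fgfrl1 lay below both, against 12.7%. Pla2g2a and Wnt3 overlapped the controls. Between Rspo1 and LGR5-ECD, 3 of the 10 lay higher in every Rspo1 library, against 18.9% of all genes, and 2 (Clps and Itln1) lay lower, against 12.1%. The median log2 change of the 10 was 2.72 in Rspo1 and 2.50 in LGR5-ECD against Fc, while the medians of all genes were 0.16 and 0.05. Log2 changes are differences of log2(FPKM + 1), a scale that understates the change of low genes. With median-ratio scaling the all-gene median of Rspo1 against Fc was 0.01, and the same 4 members were called. The share of calls that were higher was 53.85% in Rspo1 against Fc as deposited, 40.98% with median-ratio scaling and 40.96% with quantile normalization. In LGR5-ECD against Fc it was 62.2%, 48.91% and 48.15%.

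The controls differed from each other. Control 1 held 31.0 times as much Lyz1 and 55.3 times as much Itln1 as control 2. On the log2 scale only 0.122% of the tested genes differed more between the controls than Lyz1 did, and 0.0873% more than Itln1. For Mptx2, Clps and Pla2g2a the ratio of control 1 to control 2 was 9.70, 4.20 and 6.12. Mmp7 and Nupr1 were closer, with ratios of 1.61 and 0.634. Control 2 also had little defensin transcript. The 18 genes with a Defa symbol, the family of the alpha-defensins of Paneth granules with 3 symbols of pseudogene form (Defa-ps), summed to 1645 to 3153 FPKM in Rspo1, 1903 to 4418 FPKM in LGR5-ECD, 664 FPKM in control 1 and 20.0 FPKM in control 2. Stem cell markers summed to 1272 FPKM in control 1 and 585 FPKM in control 2, so control 2 was lower there too. Calls against Fc therefore depended on the control used. Against control 1 alone, with the spread taken from the other groups, 1 member was called in Rspo1 (Pla2g2a) and 0 in LGR5-ECD. At an unadjusted p under 0.05 those numbers were 8 and 7. Against control 2 alone, 8 and 7 members were called.

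**Figure D2:**
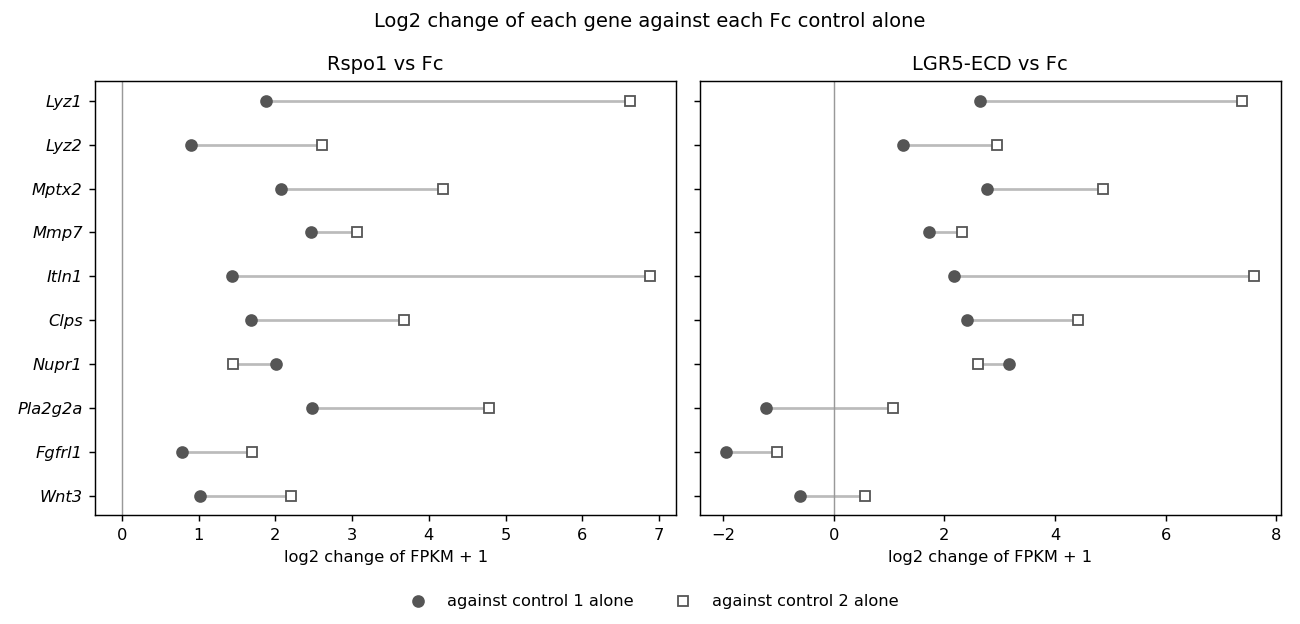
Log2 change of FPKM + 1 (horizontal axes) of each gene in Rspo1 and in LGR5-ECD against control 1 alone (filled circles) and control 2 alone (open squares). All 10 genes lie above 0 against either control in Rspo1, while in LGR5-ECD Pla2g2a and Wnt3 change sign with the control and Fgfrl1 is below 0 against both.

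Lysozymes cut the peptidoglycan of bacterial walls. The mouse has a pair of such genes: Lyz1 is the form of Paneth cells and Lyz2 that of macrophages and other myeloid cells. They are near copies, which bears on how reads are divided between them. The coding sequences are both 447 bases long and share 95.1% of their bases, with 22 differences. Of the 50-base words in the Lyz2 transcript, 15.4% also occur in the Lyz1 transcript. The first 120 coding bases, from the GENCODE M21 transcripts on chromosome 10, show how the differences are spaced, with capitals at the 11 bases that differ.
Lyz1: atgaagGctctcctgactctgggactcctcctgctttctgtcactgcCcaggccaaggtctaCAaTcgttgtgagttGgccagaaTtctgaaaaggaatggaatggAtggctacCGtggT
Lyz2: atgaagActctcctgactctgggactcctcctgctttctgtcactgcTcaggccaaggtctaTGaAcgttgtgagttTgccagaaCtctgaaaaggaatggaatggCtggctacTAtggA

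Lyz1 stood at 949, 759 and 437 FPKM in the Rspo1 libraries. In LGR5-ECD it stood at 571, 2073 and 1287 FPKM, and in controls 1 and 2 at 184 and 5.95 FPKM. Every treated library was above both controls, and the treated groups overlapped. Lyz1 ranked 10 in mean level among the 11454 tested genes in LGR5-ECD, 30 in Rspo1 and 303 in Fc. The Rspo1 mean was 3.88 times control 1 and 120.1 times control 2, and the LGR5-ECD mean was 7.11 and 220.1 times. With controls that far apart the log2 changes of 4.25 in Rspo1 (SE 1.06, adjusted p = 0.0834) and 5.004 in LGR5-ECD (SE 1.06, adjusted p = 0.0703) did not pass. Without control 1 they were 6.61 and 7.37 and passed (adjusted p = 0.00261 and 0.00141). Between Rspo1 and LGR5-ECD the difference was -0.76, with a 95% interval of -2.85 to 1.34 (adjusted p = 0.695).

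Lyz2 was low everywhere. It stood at 6.11, 6.03 and 3.48 FPKM in Rspo1 and at 4.38, 13.2 and 5.11 FPKM in LGR5-ECD. Control 1 had 2.24 FPKM and control 2 was listed at 0. It stood at 0.644% to 0.797% of Lyz1 in Rspo1, 0.397% to 0.767% in LGR5-ECD and 1.21% in control 1. The log2 changes against Fc were 1.75 in Rspo1 (SE 0.53, adjusted p = 0.133) and 2.11 in LGR5-ECD (SE 0.53, adjusted p = 0.103). They passed only against control 2 alone (adjusted p = 0.0404 and 0.0463). Myeloid transcripts were scarce: of 13 other myeloid markers 5 were listed at 0 in every library and 10 were under 1 FPKM in every library, and the 13 summed to 10.4 to 23.6 FPKM in Rspo1, 12.6 to 15.8 FPKM in LGR5-ECD and 7.37 and 11.7 FPKM in the controls. The 5 at 0 were Emr1, C1qa, C1qb, Cx3cr1 and Aif1, which mark macrophages and microglia. Most of the sum came from Cd68, at 1.56 to 7.48 FPKM, and Cd14, at 3.70 to 16.0 FPKM, and Itgam reached 3.02 FPKM. Cd68 and Cd14 were thus low, as Lyz2 was, but did not follow it in every library. In control 2, where Lyz2 was listed at 0, they were at 4.73 and 5.82 FPKM, and in control 1 at 1.56 and 4.72 FPKM. Whether Lyz2 transcripts came from myeloid cells was not tested.

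Pla2g2a encodes a secreted phospholipase that attacks bacterial membranes, and in C57BL/6 mice the gene is known to carry a disrupting mutation (the strain is not given here). Its transcript was at 97.3, 129 and 132 FPKM in Rspo1. In LGR5-ECD it was at 12.5, 6.89 and 6.17 FPKM, and in controls 1 and 2 at 20.4 and 3.33 FPKM. The Rspo1 libraries stood far above all others, and the LGR5-ECD libraries lay between the controls. The Rspo1 mean was 14.1 times the LGR5-ECD mean, a log2 change of 3.71 (SE 0.48, adjusted p = 0.00134), and this call held under all 16 alternatives run for it. Against Fc the change was 3.63 in Rspo1 (SE 0.54, adjusted p = 0.0142). That call was lost without Rspo1 replicate 2 (adjusted p = 0.0670) or 3 (0.0599) and held against either control alone. In LGR5-ECD the change against Fc was -0.08 (95% interval -1.27 to 1.11, adjusted p = 0.957), and it was -1.23 against control 1 and 1.07 against control 2.

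Mmp7 encodes matrilysin, the metalloprotease that cuts mouse alpha-defensin precursors into active peptides, and it is known as a target of Wnt signalling in intestinal tumours. Its first promoter window in RefSeq is shown because Mmp7 was the only member whose window held the letters CTTTGA. They are a form of the core motif of TCF/LEF factors, through which Wnt signals act. The letters searched on both strands were CTTTGA for TCF/LEF, ACAATG for SOX factors and CAGCTG, an E-box, and they stand in capitals. These are found in 16%, 12.6% and 16.3% of the 32851 promoter windows of the table, each 300 bases long, from 250 bases before to 50 bases after a start. Of the 8 members with a window, 1, 2 and 3 held these letters. Clps and Pla2g2a have none in the table. In Mmp7 the TCF/LEF match, on the reverse strand, began at base 6 after the start and the SOX match at base -102. The windows of Lyz1 and Lyz2 each held the E-box at base 7, and those of Wnt3, Fgfrl1 and Itln1 held no match to the letters searched. Other forms of the motifs were not searched. The TCF/LEF form CTTTGT occurs, on either strand, in the windows of Wnt3, Lyz1, Fgfrl1 and Mptx2. The windows of Lyz1, the most abundant member, and of Wnt3 stand beside that of Mmp7. A match of letters is a description of the window and no evidence of binding. The windows are of build GRCm38.p6, while the submitters' notes name mm9 for the expression values.
Mmp7 (chr9:7691840-7692139, + strand): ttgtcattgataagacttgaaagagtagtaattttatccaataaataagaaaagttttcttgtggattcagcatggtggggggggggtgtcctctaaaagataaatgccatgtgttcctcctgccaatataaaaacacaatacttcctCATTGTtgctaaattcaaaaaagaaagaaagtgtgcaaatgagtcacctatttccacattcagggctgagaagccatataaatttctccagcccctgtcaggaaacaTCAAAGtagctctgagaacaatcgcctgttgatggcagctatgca
Lyz1 (chr10:117292819-117293118, - strand): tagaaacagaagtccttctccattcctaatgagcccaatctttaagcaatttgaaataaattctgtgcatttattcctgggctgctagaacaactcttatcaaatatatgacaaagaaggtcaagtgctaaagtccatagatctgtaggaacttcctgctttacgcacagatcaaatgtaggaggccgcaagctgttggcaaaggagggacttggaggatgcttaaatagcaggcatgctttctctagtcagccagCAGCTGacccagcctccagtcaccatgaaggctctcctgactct
Wnt3 (chr11:103773925-103774224, + strand): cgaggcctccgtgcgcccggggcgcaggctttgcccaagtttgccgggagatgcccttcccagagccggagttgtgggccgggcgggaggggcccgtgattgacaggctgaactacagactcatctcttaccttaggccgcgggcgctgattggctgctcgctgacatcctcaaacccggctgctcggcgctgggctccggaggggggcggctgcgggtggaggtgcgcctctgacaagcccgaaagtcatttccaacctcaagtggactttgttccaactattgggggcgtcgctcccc

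The Mmp7 transcript was at 34.4, 52.2 and 70.0 FPKM in Rspo1 and at 24.4, 28.4 and 36.7 FPKM in LGR5-ECD. Controls 1 and 2 had 8.23 and 5.12 FPKM. Both treated groups lay above both controls, and the treated groups overlapped in 1 pair of libraries. Against Fc Mmp7 rose by 2.77 in Rspo1 (SE 0.31, adjusted p = 0.00455) and by 2.02 in LGR5-ECD (SE 0.31, adjusted p = 0.0302). Between Rspo1 and LGR5-ECD the change was 0.75 (95% interval 0.13 to 1.37), which did not pass after adjustment (adjusted p = 0.135). The Rspo1 call was lost only without control 2 among the libraries left out (2.47, adjusted p = 0.0589). The LGR5-ECD call was lost without control 2 (1.72, adjusted p = 0.169), LGR5-ECD replicate 2 (adjusted p = 0.0840) or Rspo1 replicate 2 (adjusted p = 0.0701). Set beside Lyz1 in the same library, Mmp7 was at 3.63%, 6.88% and 16.0% of the Lyz1 level in Rspo1, 4.28%, 1.37% and 2.85% in LGR5-ECD, 4.46% in control 1 and 86.1% in control 2. Rspo1 replicate 3 had the highest Mmp7 and the lowest Lyz1 of its group.

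Itln1 encodes intelectin-1, a lectin of Paneth and goblet cells that binds sugars of microbes. It stood at 685, 539 and 392 FPKM in Rspo1, and at 750, 892 and 978 FPKM in LGR5-ECD. Controls 1 and 2 had 193 and 3.48 FPKM. All LGR5-ECD libraries lay above all Rspo1 libraries, and both groups lay above both controls. The changes against Fc of 4.16 in Rspo1 (SE 1.11, adjusted p = 0.0972) and 4.88 in LGR5-ECD (SE 1.11, adjusted p = 0.0796) did not pass. Without control 1 they were 6.87 (adjusted p = 7.3e-05) and 7.60 (adjusted p = 6.71e-05). Between the treated groups the difference was -0.73 (95% interval -2.92 to 1.47, adjusted p = 0.723). In control 2 Itln1 was nearly missing. The summed goblet markers were at 948 FPKM in that library and at 339 FPKM in control 1. Most of that difference was Zg16, at 484 and 65.0 FPKM. Muc2, Tff3, Clca3 and Fcgbp were also higher in control 2. Spink4 was nearly equal, at 26.7 and 24.7 FPKM, and Foxa3 was lower in control 2, at 16.8 and 27.8 FPKM. Which cells gave the Itln1 transcripts was not tested.

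Mptx2 encodes a mucosal pentraxin, of a family of secreted proteins that bind microbial surfaces. It was at 25.5, 27.9 and 31.6 FPKM in Rspo1 and at 28.8, 54.8 and 62.2 FPKM in LGR5-ECD. Controls 1 and 2 had 5.94 and 0.612 FPKM. The controls lay below all treated libraries, and the treated groups overlapped. Mptx2 rose against Fc by 3.13 in Rspo1 (SE 0.51, adjusted p = 0.0233) and by 3.82 in LGR5-ECD (SE 0.51, adjusted p = 0.0193). Against control 1 alone neither passed (2.07, adjusted p = 0.116, and 2.77, adjusted p = 0.0637). The Rspo1 call was also lost without any single Rspo1 library (adjusted p = 0.0668, 0.0913 and 0.0822), and the LGR5-ECD call without LGR5-ECD replicate 2 (adjusted p = 0.0653). Its near copy Mptx1, with 92% of coding bases in common, was at 5.65, 1.52 and 1.11 FPKM in Rspo1 and at 1.22, 17.6 and 41.5 FPKM in LGR5-ECD and was listed at 0 in both controls. Its difference between Rspo1 and LGR5-ECD did not pass (adjusted p = 0.232), and the split of reads within this pair is uncertain.

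Clps encodes colipase, the cofactor of pancreatic lipase, and is also transcribed in Paneth cells. Its transcript was at 221, 174 and 222 FPKM in Rspo1 and at 276, 454 and 318 FPKM in LGR5-ECD. In controls 1 and 2 it was at 63.2 and 15.1 FPKM. The 3 groups did not overlap, with LGR5-ECD highest and Fc lowest. Clps rose against Fc by 2.68 in Rspo1 (SE 0.47, adjusted p = 0.0282) and by 3.42 in LGR5-ECD (SE 0.47, adjusted p = 0.0196). The difference between Rspo1 and LGR5-ECD was -0.74 (95% interval -1.66 to 0.18, adjusted p = 0.332). Against control 1 alone the changes were 1.68 (adjusted p = 0.109) and 2.42 (adjusted p = 0.0637). The Rspo1 call was also lost without any single Rspo1 library (adjusted p = 0.0834, 0.0913 and 0.0987), and the LGR5-ECD call without LGR5-ECD replicate 2 (adjusted p = 0.0653). Of 21 other genes of pancreatic acinar cells, 15 were listed at 0 in every library, among them the lipase gene Pnlip, Cpa1, Prss2 and Cel. Their sum of 20.8 to 28.6 FPKM in Rspo1, 18.3 to 55.2 FPKM in LGR5-ECD and 8.75 and 3.20 FPKM in the controls came in the treated libraries mostly from Pnliprp2, a lipase-related gene, at 21.1, 15.6 and 26.3 FPKM in Rspo1, at 51.2, 43.5 and 18.3 FPKM in LGR5-ECD and 8.20 and 0.0983 FPKM in the controls.

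Nupr1 encodes a small stress-induced nuclear protein. It stood at 26.7, 19.8 and 17.6 FPKM in Rspo1 and at 26.7, 66.2 and 62.5 FPKM in LGR5-ECD. Controls 1 and 2 had 4.48 and 7.06 FPKM. It was the only member that was higher in control 2 than in control 1. Against Fc Nupr1 rose by 2.88 in LGR5-ECD (SE 0.37, adjusted p = 0.0193). In Rspo1 the change was 1.73 (SE 0.37) and missed (adjusted p = 0.0545). It passed without LGR5-ECD replicate 1 (adjusted p = 0.0171) or 3 (0.0305), which enter only through the shared spread. The LGR5-ECD call was lost without control 2 (adjusted p = 0.0655) or LGR5-ECD replicate 2 (0.0653). The difference between Rspo1 and LGR5-ECD was -1.16 (95% interval -1.89 to -0.42, adjusted p = 0.0601), and without LGR5-ECD replicate 1 it was -1.57 and passed (adjusted p = 0.00722). Of the 10 tested genes of a stress response list that includes Nupr1, 1 rose in Rspo1 and 2 rose in LGR5-ECD against Fc, with medians of 0.47 and 0.25. Atf3, a stress-induced transcription factor gene, was the other one, at 2.88 in Rspo1 (SE 0.41, adjusted p = 0.0124) and 2.18 in LGR5-ECD (SE 0.41, adjusted p = 0.0476). Both Atf3 calls were lost without control 2 (adjusted p = 0.146 and 0.237), and the LGR5-ECD call also without each other library but LGR5-ECD replicate 1.

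Wnt3 encodes a Wnt ligand that Paneth cells supply to stem cells. Its level was low, at 3.01, 4.24 and 7.30 FPKM in Rspo1 and at 0.562, 0.956 and 0.879 FPKM in LGR5-ECD. Controls 1 and 2 had 1.75 and 0.215 FPKM. The Rspo1 libraries lay above all others, and the LGR5-ECD libraries lay between the controls. Wnt3 was higher in Rspo1 than in LGR5-ECD by 1.64 (SE 0.37, adjusted p = 0.0219). This call was lost without Rspo1 replicate 2 (adjusted p = 0.0752), Rspo1 replicate 3 (0.104) or LGR5-ECD replicate 1 (0.0591). The change against Fc was 1.61 in Rspo1 (SE 0.41, adjusted p = 0.0871), and it passed against control 2 alone (2.20, adjusted p = 0.0363). In LGR5-ECD it was -0.03 (95% interval -0.94 to 0.89), and the sign differed with the control. Relative to Lyz1, Wnt3 was at 0.317% to 1.67% in Rspo1, 0.0461% to 0.0986% in LGR5-ECD and 0.947% and 3.61% in the controls.

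Fgfrl1 encodes an FGF receptor-like protein without the kinase domain of other FGF receptors. It was at 41.4, 45.6 and 49.2 FPKM in Rspo1. In LGR5-ECD it was at 11.1, 8.72 and 1.94 FPKM, and in controls 1 and 2 at 25.9 and 13.3 FPKM. The 3 groups did not overlap, and the order was Rspo1, Fc, LGR5-ECD, which no other member showed. The sort marker Lgr5 had the same order. Of the 12 stem cell markers, 12 lay above both controls in every Rspo1 library, against 26.2% of all genes. In every LGR5-ECD library 8 lay below both controls, against 12.7% of all genes. Fgfrl1 was higher in Rspo1 than in LGR5-ECD by 2.72 (SE 0.46, adjusted p = 0.00502), and this call held under all 16 alternatives run for it. Neither side passed against Fc, with 1.24 in Rspo1 (SE 0.51, adjusted p = 0.254) and -1.49 in LGR5-ECD (SE 0.51, adjusted p = 0.188). Without LGR5-ECD replicate 3, which had the lowest value, the Rspo1 change of 1.24 passed (adjusted p = 0.0360).

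**Figure D3:**
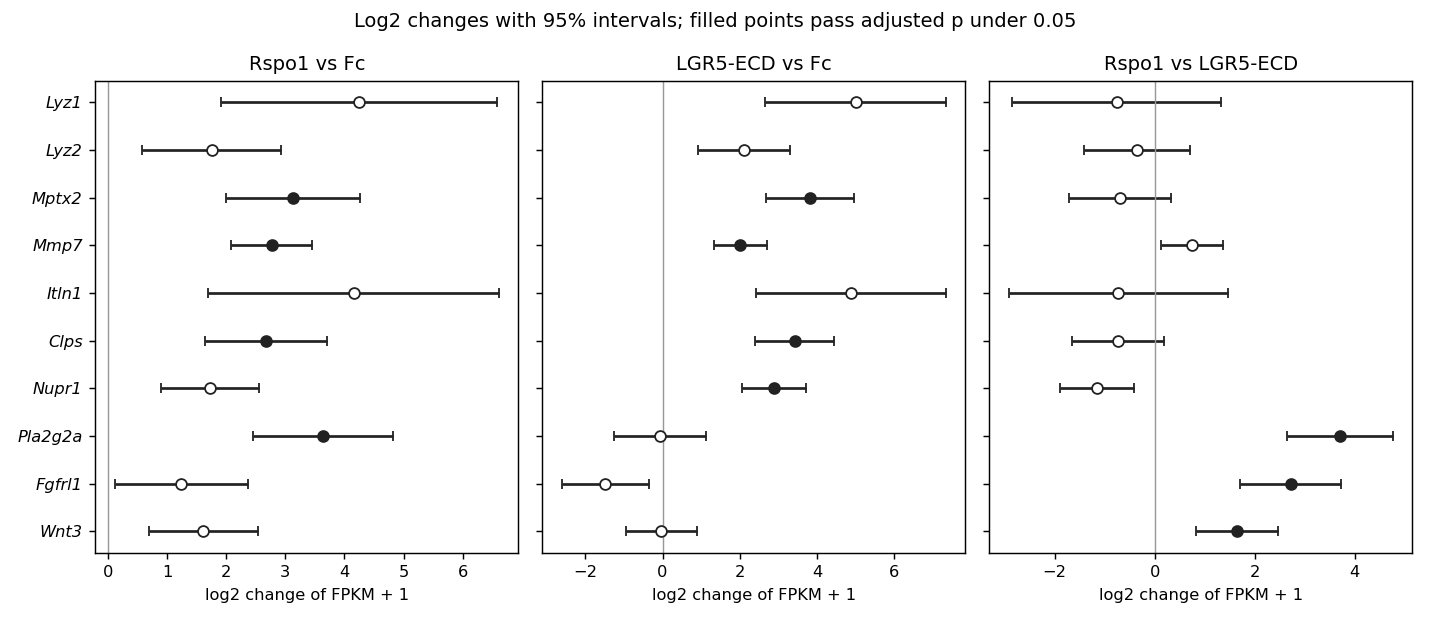
Log2 change of FPKM + 1 (horizontal axes) of the 10 genes in Rspo1 against Fc, LGR5-ECD against Fc and Rspo1 against LGR5-ECD; points are fitted changes, bars are 95% intervals not adjusted for the number of genes, and filled points passed. Mmp7, Mptx2 and Clps are filled in both comparisons with Fc, and Pla2g2a, Fgfrl1 and Wnt3 are filled between Rspo1 and LGR5-ECD.

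The 10 genes spanned a wide range of levels. In Rspo1 the mean was 715 ± 259 FPKM for Lyz1, 538 ± 147 for Itln1, 205 ± 27.1 for Clps and 120 ± 19.5 for Pla2g2a (SD, n = 3 each). Mmp7 (52.2 ± 17.8), Fgfrl1 (45.4 ± 3.88), Mptx2 (28.3 ± 3.06) and Nupr1 (21.3 ± 4.77) followed, and Lyz2 (5.21 ± 1.496) and Wnt3 (4.85 ± 2.21) were lowest (SD, n = 3 each). In LGR5-ECD the order was Lyz1 (1310 ± 752), Itln1 (873 ± 115), Clps (349 ± 93.0), Nupr1 (51.8 ± 21.8), Mptx2 (48.6 ± 17.5) and Mmp7 (29.8 ± 6.25), and Pla2g2a (8.51 ± 3.44), Lyz2 (7.57 ± 4.91), Fgfrl1 (7.24 ± 4.74) and Wnt3 (0.799 ± 0.208) came last (SD, n = 3 each). Neighbours whose order changed between libraries, such as Nupr1 and Mptx2 or Pla2g2a, Lyz2 and Fgfrl1 in LGR5-ECD, have no settled order. Lyz1 and Itln1 also changed order in LGR5-ECD, with Itln1 at 131%, 43.0% and 76.0% of Lyz1. In Rspo1 Itln1 was below Lyz1 in every library, at 72.2%, 71.0% and 89.7% of it.

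Over the 8 libraries, log2(FPKM + 1) values of Lyz1, Lyz2, Itln1, Mptx2 and Clps had Pearson correlations of 0.912 to 0.986 with each other. Those of Pla2g2a with Fgfrl1 and Wnt3 were 0.834 and 0.942, and that of Fgfrl1 with Nupr1 was -0.51. The points share libraries and scaling, and control 2 lies far from the others for the first 5 genes. The genes most like each member were sought among 6479 genes with a mean of at least 5 FPKM. Defa5 (r = 0.995), Defa24 (0.987) and Chfr (0.986) were most like Lyz1. Atoh1, the transcription factor gene of secretory cells (0.979), Lyz1 (0.968) and Defa5 (0.957) were most like Lyz2, and Defa24 (0.989), Rab22a (0.984) and Mpzl2 (0.983) most like Itln1. Clps (0.986), Golph3l (0.976) and Ang4 (0.975) were most like Mptx2, and Mptx2 (0.986), Ang4 (0.983) and Hist1h1e (0.979) most like Clps. Mmp7 was most like Ak3 (0.966), Zcchc14 (0.966) and Apc (0.963), and Nupr1 most like Ccl6 (0.957), Guca2a (0.948) and Pde3a (0.944). For Pla2g2a they were Ets2 (0.993), Picalm (0.990) and Ehf (0.989), for Fgfrl1 Smo (0.997), Esam (0.993) and Litaf (0.987), and for Wnt3 Gstm1 (0.983), Trmt112 (0.980) and Ubl7 (0.975). With 8 libraries and this many genes searched, such values are a description.

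Defensin genes and other antimicrobial genes moved in several ways. Of 12 tested Defa genes 4 rose in Rspo1 and 5 in LGR5-ECD against Fc, and 2 (Defa22 and Defa21) were lower in Rspo1 than in LGR5-ECD. Both of those were lost without either control, Rspo1 replicate 2 or 3, or LGR5-ECD replicate 1 or 3. The medians of the 12 were 3.66, 4.29 and -0.70. They are close copies, which leaves the division of reads between them uncertain. Against control 1 alone 1 and 0 were called higher (limma). With both controls 10 were higher in each comparison at an unadjusted p under 0.05. Of 10 other antimicrobial genes, 3 rose in Rspo1 and 2 in LGR5-ECD against Fc, and 1 was higher and 2 were lower in Rspo1 than in LGR5-ECD. Ang4, an angiogenin that kills bacteria, was at 121, 88.1 and 159 FPKM in Rspo1, at 167, 165 and 173 FPKM in LGR5-ECD and 26.3 and 2.57 FPKM in the controls, and rose in both (3.60, SE 0.63, adjusted p = 0.0282, and 4.10, SE 0.63, adjusted p = 0.0302). Reg4, a secreted lectin-like protein gene, also rose in both (3.56 and 3.29). Without any single Rspo1 library neither gene was called in either comparison. The LGR5-ECD calls were also lost without control 2 or LGR5-ECD replicate 2, and that of Reg4 without LGR5-ECD replicate 1. Rnase1, a secreted ribonuclease gene, followed Rspo1 only, at 180, 226 and 348 FPKM in Rspo1, at 23.3, 19.2 and 19.8 FPKM in LGR5-ECD and 29.3 and 11.2 FPKM in the controls. It was higher in Rspo1 than in LGR5-ECD by 3.48 (SE 0.33, adjusted p = 0.00023), a call that held under every alternative run. Lypd8, whose protein binds flagellated bacteria, was lower in Rspo1, at 559, 375 and 663 FPKM, against 2490, 2719 and 2275 FPKM in LGR5-ECD and 1728 and 1141 FPKM in the controls (Rspo1 against LGR5-ECD -2.26, SE 0.28, adjusted p = 0.00112, also under every alternative run). The summed enterocyte markers had the same order of groups. Which cells gave the Lypd8 transcripts was not tested. Reg3a, of a family of antibacterial lectins, was near 0 in Rspo1, at 0, 0.785 and 0 FPKM, against 2.98, 2.09 and 2.42 FPKM in LGR5-ECD and 0.530 and 0 FPKM in the controls (-1.52, SE 0.33, adjusted p = 0.0173). That call was lost without Rspo1 replicate 1 or 3 or LGR5-ECD replicate 1. It was also lost with a pseudocount of 0.1 (-3.63, adjusted p = 0.0784) and with the replicate block (adjusted p = 0.0592).

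Among 7 tested transcription factor genes of Paneth and secretory cells, 1 rose in Rspo1 against Fc and 2 were higher in Rspo1 than in LGR5-ECD. Sox9, which Paneth cells need to form, was at 97.5, 96.7 and 122 FPKM in Rspo1, at 30.5, 30.1 and 17.7 FPKM in LGR5-ECD and 60.4 and 39.9 FPKM in the controls (Rspo1 against LGR5-ECD 2.00, SE 0.25, adjusted p = 0.00111). Its groups did not overlap, with the same order as Fgfrl1. Bhlha15, a factor of secretory cell maturation, rose in Rspo1 against both Fc (2.40, SE 0.41, adjusted p = 0.0282) and LGR5-ECD (1.85, SE 0.37, adjusted p = 0.0125). The call against Fc was lost without either control or any single Rspo1 library, and that against LGR5-ECD without Rspo1 replicate 2 (adjusted p = 0.0668) or 3 (0.0544). Atoh1 (adjusted p = 0.617), Xbp1 (0.741) and Spdef (0.617) did not pass between the treated groups. Of 6 tested receptor genes, Ephb3, Cd44 and Cd24a were higher and Fzd5 was lower in Rspo1 than in LGR5-ECD. Ephb3, a receptor that holds Paneth cells at the crypt base, was at 42.0, 46.2 and 46.5 FPKM in Rspo1, at 6.74, 5.71 and 2.18 FPKM in LGR5-ECD and 22.6 and 9.88 FPKM in the controls (3.06, SE 0.36, adjusted p = 0.000812). Fzd5, the Wnt receptor gene that Paneth maturation depends on, was lower in Rspo1, at 16.6, 14.1 and 13.2 FPKM, against 28.4, 47.4 and 39.4 FPKM in LGR5-ECD and 26.7 and 15.8 FPKM in the controls (-1.31, SE 0.25, adjusted p = 0.00957). Several of these genes are also expressed by stem cells, whose 12 listed markers were all higher in Rspo1 than in LGR5-ECD.

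Of 10 other niche ligand genes 5 were tested, and 0 were called in any comparison by limma. At an unadjusted p under 0.05, 1, 0 and 1 were higher in Rspo1 against Fc, LGR5-ECD against Fc and Rspo1 against LGR5-ECD, and 0 were lower. Wnt6, Wnt9b, Wnt11 and Egf were under 1 FPKM in every library. Tgfa, which encodes an EGF receptor ligand, was at 11.2, 14.6 and 14.0 FPKM in Rspo1 and at 8.68, 7.52 and 12.1 FPKM in LGR5-ECD, and the controls had 7.42 and 5.26 FPKM. Of 8 tested granule and autophagy genes 0 were called in each comparison by limma, with 1, 1 and 1 higher and 1, 0 and 2 lower at an unadjusted p under 0.05.

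**Figure D4:**
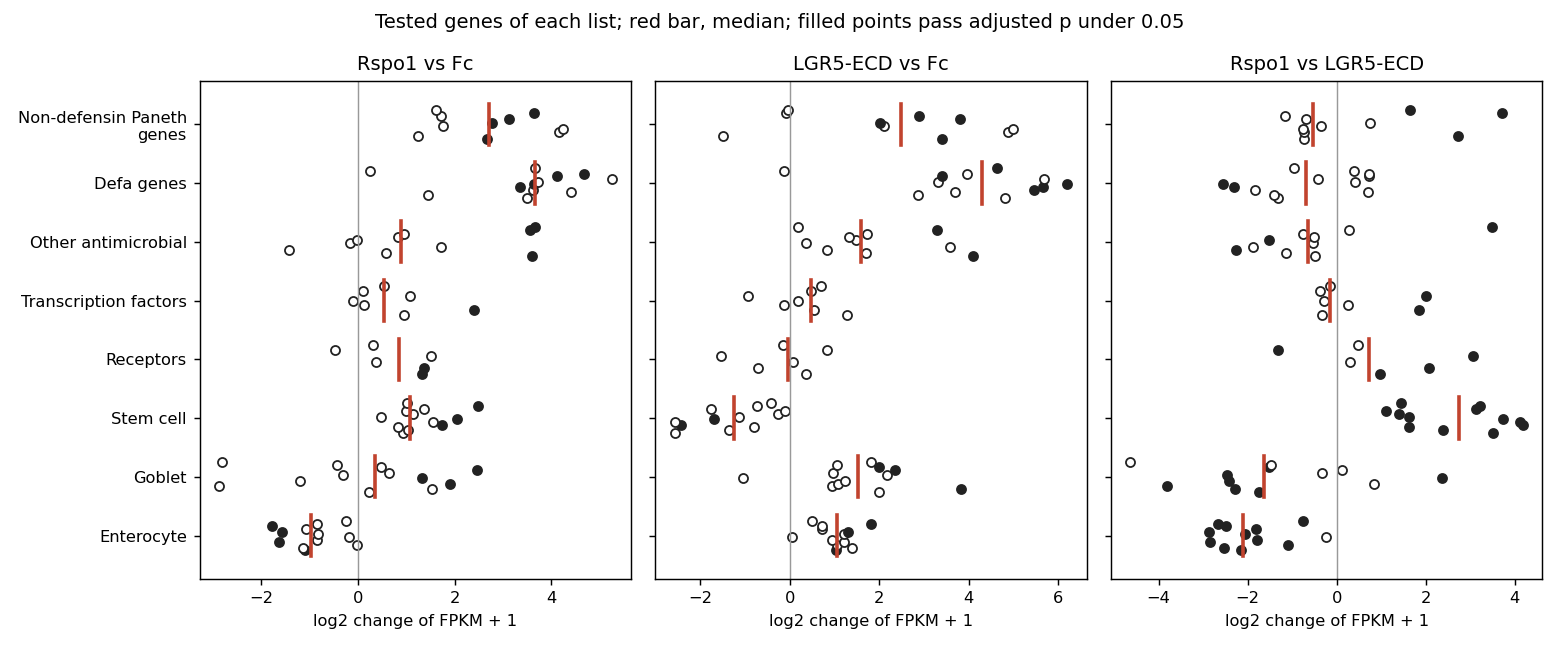
Log2 change of FPKM + 1 (horizontal axes) of the tested genes of 8 lists in the 3 comparisons; each point is a gene, filled points passed, and the red bar is the list median. The non-defensin Paneth genes and the Defa genes lie mostly above 0 in both comparisons with Fc, and the stem cell genes lie above 0 in Rspo1 against LGR5-ECD.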

How the data were processed

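RNA sequencing of sorted GFP-positive cells was read from the authors' deposited table of FPKM (24510 rows, 8 libraries). The submitters' processing notes name mm9 as build and, as tools, Cufflinks, TopHat, DESeq2 and HTSeq. Which step each served, and the annotation and strand, is not given in the sources used here. Of the rows, 27 had dates in place of symbols and 391 were repeats, and these were dropped. Where a symbol stood on several rows that differed (89 symbols), its values were added up. Genes with at least 1 FPKM in at least 2 libraries were tested (11454). Log2(FPKM + 1) values were fitted with limma 3.58.1 (eBayes with trend, in R 4.3.3), 1 mean per group, over the 8 libraries together. Tests were two-sided with Benjamini-Hochberg adjustment over all tested genes and a threshold of 0.05. Intervals are 95% and moderated. Tables were made with pandas 2.3.3 and NumPy 2.4.6 in Python 3.11.15, and figures with matplotlib 3.10.9.

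The 10 genes and the other lists were chosen with earlier results of these data known. The rule for named genes took all 10, up to 4 called genes of a list, and the 3 most correlated genes for each of the 10; others named beside them were chosen after their values were seen. Promoter windows came from RefSeq (GRCm38.p6) and transcripts from GENCODE M21. Low values lay on steps of whole reads for 16.6% to 27.5% of ratios between libraries, so whole reads were not recovered, depth is unknown and counts were not tested. The fit was tested on simulated data with 200 of 11454 genes changed. Of the genes given a log2 change of 2, it found 79%, 69% and 79% in Rspo1 against Fc, LGR5-ECD against Fc and Rspo1 against LGR5-ECD, and of those given 1 it found 25%, 12% and 32%. The simulated noise was independent between genes and had the same spread in every group. The real controls differed widely for several members, so these rates do not describe how well changes of those members against Fc were found. Alternatives tried were a pseudocount of 0.1, no filter or one at 5 FPKM, median-ratio scaling, quantile normalization, a fit of the compared groups alone, a replicate block, and leaving out each library. With 1 control left, that library is assumed to vary like the other groups. Leaving out control 2 and LGR5-ECD library 3 together was added after the data were seen.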

Additional observations from a re-analysis of the deposited data

How the results depend on the processing

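The number of the 10 genes called higher was 4 in Rspo1 against Fc, 4 in LGR5-ECD against Fc and 3 in Rspo1 against LGR5-ECD. In the first it was 1 without a filter on low values, and 1 to 8 when single libraries were left out. In the second it was 2 with a pseudocount of 0.1, 0 without a filter and 0 in a fit of the compared groups alone (limma; 7 at an unadjusted p under 0.05 in each), and 0 to 7 when single libraries were left out. In the third it stayed within 1.5 times under the alternatives run, and 0 genes were called lower except 1 (Nupr1) without LGR5-ECD replicate 1, a range of 0 to 1. No called change of a member turned its sign under any alternative. Without control 2 and LGR5-ECD library 3 together the first 2 counts were 3 each.

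Counts over all genes moved more. In Rspo1 against Fc 77 were higher and 66 lower, and over the alternatives 7 to 362 and 13 to 173. In LGR5-ECD against Fc 51 and 31 became 0 to 153 and 0 to 56. In Rspo1 against LGR5-ECD 563 and 405 became 212 to 665 and 183 to 541. With the replicate number as a block, Rspo1 against LGR5-ECD gave 3 members higher and 0 lower, and 319 and 267 of all genes. Deviations of same-numbered libraries from their group means correlated at -0.0188, -0.0225 and -0.0477. The highest value, 0.0598, joined Rspo1 replicate 3 and LGR5-ECD replicate 2. No pairing by number was thus seen. Each group mean rests on 3 libraries, so a weak pairing could be missed. No paired analysis was possible for the comparisons with Fc because the control columns carry no sample number from the labels. Depth is unknown, so counting error at low FPKM cannot be given.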
